A study of Oryza sativa Japonica Group with 2 samples.

Results

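A set of 242 tall, single-summit regions from ChIP of FLAG-tagged NF-YC11 was described in rice endosperm, which stores the starch of the grain. The regions were chosen by the deposited values themselves: each lies on chromosomes 1 to 12, is given by a single row of the authors' peak list, and has a pileup of 36 to 99 at its summit. Pileup is the number of ChIP fragments that cover a base. The set holds 5.77% of the 4193 listed regions and 6.10% of the 3965 single-summit regions on the chromosomes. Below it lie 3609 single-summit regions of lower pileup, and above it lie 114 of higher pileup; another 223 chromosomal regions carry several summits. Because pileup and the row count made the set, pileup, fold enrichment, q, width and summit position are given as descriptions with no test. All of them come from the same ChIP-to-input contrast.

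The series holds 2 libraries of Oryza sativa Japonica Group, 1 per group, both from endosperm at 7 days after pollination. The ChIP group was precipitated with anti-FLAG antibody from NF-YC11-FLAG endosperm, and the Input group is chromatin of the same tissue and stage with no antibody. For each sample, 3 g of tissue was fixed for 30 min in 1% formaldehyde and its chromatin sheared to fragments of 200 to 500 bp. The promoter that drives the tagged protein, the number of plant lines and the number of plants pooled are not stated in the labels. No endosperm without the tag enters the comparison, so signal that the antibody gives without NF-YC11 cannot be told apart from binding of NF-YC11. The files hold no expression values, so the tissue label could not be checked against marker genes. With 1 library per group there is no replicate error, and every interval here covers counting error only. Fold intervals hold the input background fixed, so they leave out the counting error of the input.

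NF-YC proteins are the histone-fold partners of NF-YB proteins, and the pair joins an NF-YA subunit to form the trimeric factor NF-Y. In the trimer, the NF-YA subunit reads the CCAAT box, while the histone-fold pair contacts DNA without strong sequence preference, much as core histones do. In plants each subunit is encoded by a gene family, and in rice endosperm the partner NF-YB1 is known for its role in grain filling. ChIP recovers DNA that is crosslinked to the tagged protein directly or through its partners, along with some DNA that is not. Positions follow the deposited coordinates; the labels name no genome build. Sequences, motifs and genes at the regions were not analysed here.

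Most of the 242 regions were only a little above the lower limit in height. The median pileup was 38 fragments, with quartiles of 37 and 42. A pileup of 36 to 39 was found in 150 regions (62.0%), of 40 to 49 in 66 (27.3%) and of 50 to 99 in 26 (10.7%). Height was thus concentrated at the lower limit, and 9 regions reached 80 fragments or more. An exact 95% Poisson interval on a pileup of 38 runs from 26.9 to 52.2, so counting error spans most of these heights.

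At the lower limit, 50 regions had exactly 36 fragments and 57 single-summit regions just outside had 35. The regions at 36 had a median fold enrichment of 3.04, ranging from 1.89 to 6.32, and a median width of 190.5 bp. Those at 35 had a median fold of 2.96, ranging from 1.95 to 4.67, and a median width of 183 bp. Their median input background was the same, 11.2 fragments. The highest folds at 36 fragments were that on chromosome 2 described with the 10 highest folds, then 4.80 (3.40 to 6.60) over 9 input fragments at chromosome 8, 24896285 to 24896446, and 4.03 (2.85 to 5.53) over 11 at chromosome 6, 30877824 to 30878052. At the upper limit, the tallest region of the set had 99 fragments and the next single-summit region had 105, at chromosome 3, 13352312 to 13352497, with 2.89-fold over a background of 35.7. The limits therefore cut a continuous range at the lower end and an almost empty one at the upper end.

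The input background at the tall regions was as follows. The fold enrichment in the authors' table is the ratio of pileup + 1 to local input background + 1, and the background was recovered from it in ChIP-scaled fragments. The median background was 13.4 fragments, with quartiles of 10.4 and 16.4, against 7.45 (5.96 and 9.68) in the single-summit regions of lower pileup. A background above 10 was found in 191 of the 242 regions (78.9%, exact binomial interval 73.2 to 83.9%) and in 721 of the 3609 lower ones (19.98%). A region has to pass the caller's threshold to be listed, so few regions of low pileup can be listed over such a background, and the contrast follows in large part from the limits on pileup. In the 114 regions of higher pileup the median background was 133 fragments. The limits themselves place the set between the lower and the higher regions in height, and its median background lay between theirs.

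**Figure D1:**
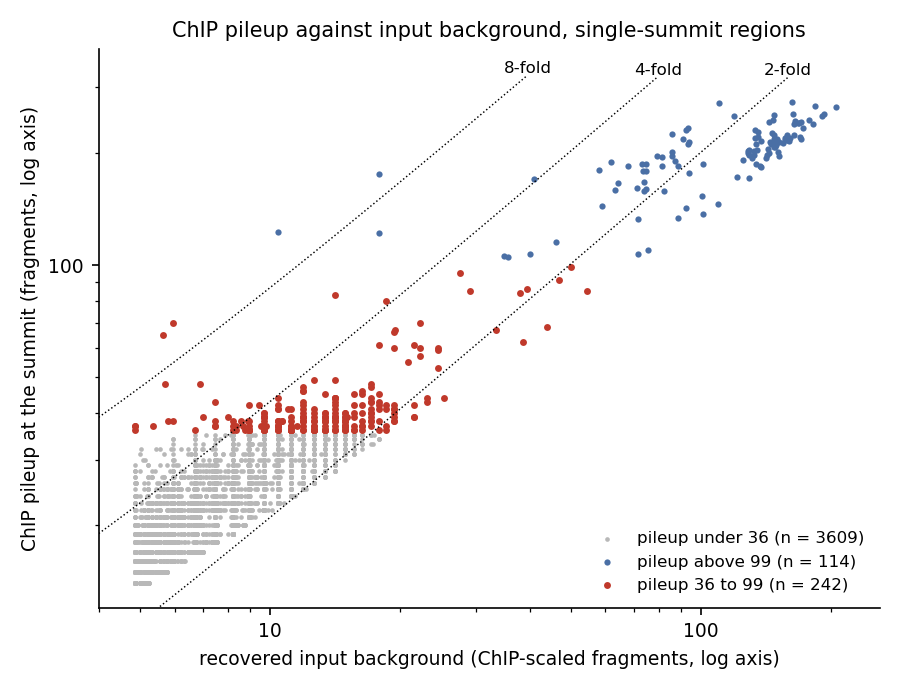
ChIP pileup at the summit (y axis, fragments) against recovered input background (x axis, ChIP-scaled fragments), both on log axes, for single-summit regions; each point is a region and dotted lines mark equal fold enrichment. The 242 regions with 36 to 99 fragments lie between the 3609 lower ones and the 114 higher ones, most of them between 2-fold and 4-fold, with a few far to the left near 8-fold.

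The median fold enrichment was close to that of the lower regions. The median was 2.85 (95% interval of the median 2.71 to 3.02, over regions, which are not replicates), with quartiles of 2.44 and 3.46. The lower regions had a median of 2.73 (2.72 to 2.73), with quartiles of 2.43 and 3.09. Within the set, 18 regions were under 2-fold, 116 (47.9%) were from 2-fold to under 3-fold, 82 (33.9%) from 3-fold to under 4-fold, and 26 (10.7%) at 4-fold or more. Of all 4188 listed chromosomal regions, 3.63% reached 4-fold by their highest summit. A q of at most 0.01 was listed for 228 of the 242 (94.2%), against 73.7% of all listed chromosomal regions. Both shares follow from the same counts that made the set, so nothing is read from them.

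Within the set, fold falls as background rises by construction, since fold is computed from pileup and background and the limits hold pileup to a narrow range. The 51 regions with a background up to 10 had a median fold of 3.95, the 167 from 10 to 20 had 2.71, and the 24 above 20 had 2.04. Pileup in the same ranges had medians of 37, 38 and 60.5 fragments. The 12 regions whose background was 7 or less had a median fold of 6.27 with a median pileup of 38. The lower regions at that background, 1641 of them, had 2.91-fold with 19 fragments.

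The authors' caller takes the largest of several local input estimates. For 216 of the 242 regions (89.3%) the recovered background equalled a whole number of input fragments in a window of 149 bp, the width of the narrowest region, against 60.3% of the lower regions. In these 216 the input held 8 to 73 fragments before scaling, with a median of 19 and quartiles of 15 and 23. The background came from a 1000 bp window in 18 regions and from a 10000 bp window in 5. The remaining 3 were at the lowest background of the list, 4.85. Most folds of the set thus rest on an input count at the summit itself.

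The 10 highest folds combined ordinary heights with low input. Their backgrounds were 4.85 to 6.88 fragments and 6 of the 10 had pileups of only 36 to 38. The highest was at chromosome 11, 18303020 to 18303645, where 70 ChIP fragments (95% Poisson interval 54.6 to 88.4) stood over 8 input fragments, a scaled background of 5.96, giving 10.2-fold (7.99 to 12.9). The next was at chromosome 8, 2080038 to 2080285, with 65 fragments (50.2 to 82.8) over 5.64 and 9.95-fold (7.71 to 12.6). The third, at chromosome 6, 9359477 to 9359733, had 48 fragments (35.4 to 63.6) over 5.71 and 7.30-fold (5.42 to 9.63). The intervals of the first pair overlap almost wholly, and that of the third overlaps both.

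The other 7 ran from 6.49-fold down to 5.61-fold, with intervals that all overlap one another. On chromosome 6 at 16741547 to 16741764 and on chromosome 10 at 10899153 to 10899327, 37 fragments stood over the lowest background, 4.85, a fold of 6.49 (4.62 to 8.88) each. On chromosome 2, 28720747 to 28721050 had 36 fragments over that same background and 6.32-fold (4.48 to 8.69). These 3 are the only regions of the set at the lowest background, so their folds are set against the floor of the list and not against a local input count. On chromosome 1, 29011907 to 29012119 had 48 fragments over 6.88 and 6.22-fold (4.62 to 8.20). On chromosome 9, 14650147 to 14650320 had 37 fragments over 5.35 and 5.99-fold (4.26 to 8.19). The last were chromosome 8, 2080899 to 2081204, at 5.74-fold (4.11 to 7.83), and chromosome 2, 30191759 to 30192292, at 5.61-fold (4.01 to 7.64), each with 38 fragments. The order of these 7 cannot be told from counting error.

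**Figure D2:**
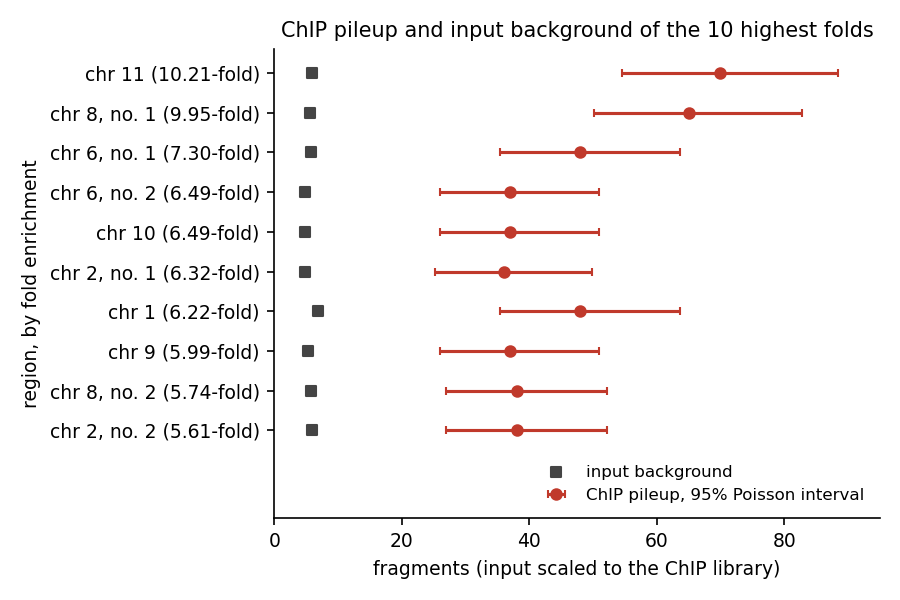
ChIP pileup (circles, with exact 95% Poisson intervals) and recovered input background (squares), in fragments on the x axis, for the 10 regions of highest fold, ordered by fold on the y axis. All backgrounds lie between 4.85 and 6.88, while pileups run from 36 to 70.

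The tallest regions were mostly not those of highest fold. Among the 9 with 80 fragments or more, 7 had a background above 20, and folds ran from 1.55 to 5.55. The tallest, at chromosome 12, 12002988 to 12003273, had 99 fragments (80.5 to 121) over 67 input fragments, a scaled background of 49.9, and only 1.97-fold (1.60 to 2.39). At chromosome 3, 19566563 to 19566716, 95 fragments over 37 input fragments gave 3.36-fold (2.73 to 4.10). At chromosome 3, 13540748 to 13540910, 91 fragments over 63 input fragments gave 1.92-fold (1.55 to 2.35). The intervals of the first and last of these overlap each other and lie below that of the second. They leave out the counting error of the 67, 37 and 63 input fragments. The 2 tall regions with a background under 20, chosen after their values were seen, were chromosome 11, 12303773 to 12303922, with 83 fragments over 14.1 and 5.55-fold, and chromosome 4, 16367725 to 16367984, with 80 over 18.6 and 4.13-fold.

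The set's largest input count was at chromosome 2, 13638842 to 13639062, where 85 ChIP fragments (67.9 to 105) stood over 73 input fragments, a scaled background of 54.4, giving 1.55-fold (1.24 to 1.92). A background above 40 was found in 4 regions and above 20 in 24 (9.92%), while 0 of the 3609 lower regions exceeded 20, which their pileup of at most 35 nearly fixes as well. Of the 18 regions under 2-fold, 12 were among these 24. The −log10 q listed for the region on chromosome 2 was 1.87, against 5.71 at the tallest region and 43.7 at the region of highest fold. Over the set, −log10 q ran from 1.37 to 43.7, with a median of 5.34.

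Width hardly varied with height up to 99 fragments. The 242 regions measured 149 to 626 bp, with a median of 190 bp (95% interval of the median 182 to 195) and quartiles of 162 and 232 bp. The lower regions had a median of 187 bp (185 to 189) and quartiles of 161 and 232 bp, although their median pileup was 23 against 38. The 114 regions above 99 fragments had a median of 197.5 bp (186 to 215) and quartiles of 167 and 263.5 bp. Regions with 36 to 39, 40 to 49 and 50 to 99 fragments had median widths of 189, 190 and 188.5 bp, and the rank correlation of pileup with width was -0.02. A width of 200 bp or more was found in 98 regions (40.5%, interval 34.3 to 47.0%) and in 41.0% of the lower regions. A width of 300 bp or more was found in 20 regions (8.26%, 5.12 to 12.5%), against 7.09%.

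Median width in the set was somewhat greater over low input, with intervals that overlap. At backgrounds up to 10 it was 208 bp (95% interval of the median 185 to 233). It was 185 bp (178 to 193) from 10 to 20 and 189.5 bp (157 to 230) above 20. The rank correlation of background with width was -0.16 in the set and 0.03 in the lower regions. The 20 regions of 300 bp or more had a median background of 9.68 and a median fold of 3.62, compared with 13.4 and 2.85 in the whole set, of which they are a part. The widest, at 626 bp, was also the region of highest fold on chromosome 11. It lay 153 bp from a region with 4 summits and 1563 bp of width, at 18301304 to 18302866, whose tallest summit had 71 fragments at 9.27-fold. The list gives no reading of the signal between them.

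The next widest were 534 bp at chromosome 2, 30191759 to 30192292, with 38 fragments and 5.61-fold, and 516 bp at chromosome 5, 227184 to 227699, with 46 fragments and 3.64-fold (2.69 to 4.83). These were followed by 444 bp at chromosome 11, 25617892 to 25618335, with 37 fragments and 4.50-fold (3.20 to 6.16), and 410 bp at chromosome 7, 22386624 to 22387033, with 37 fragments and 2.39-fold (1.70 to 3.27). Of these 5, only the first had a region with several summits within 5 kb. At the other end, 13 regions (5.37%) had the narrowest width of the list, 149 bp, against 9.56% of the lower regions. Those of highest fold among the 13 were chromosome 4, 28949807 to 28949955, at 3.53-fold (2.51 to 4.83), chromosome 12, 11695397 to 11695545, at 3.19-fold (2.35 to 4.25), and chromosome 1, 15444059 to 15444207, at 3.10-fold (2.23 to 4.21). The fold intervals of these 3 lie below that of the widest region and overlap those of the other named wide regions. They leave out the counting error of the input.

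Summits lay close to the middle. With a region's start as 0 and its end as 1, the median summit position was 0.499 (95% interval of the median 0.486 to 0.518), with quartiles of 0.439 and 0.580. The summit was a median of 13 bp from the midpoint and 79 bp from the nearer edge. It lay within 25 bp of the midpoint in 172 regions (71.1%, 64.9 to 76.7%), against 54.6% (52.9 to 56.2%) of the lower regions. The summit fell before the midpoint in 121 regions, at it in 5 and after it in 116. Among the lower regions 58.8% (57.2 to 60.4%) lay before it and the median position was 0.472 (0.466 to 0.477).

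Summits off to the side of the start were fewer among the tall regions than among the lower ones. A summit position under 0.25 was found in 7 of 242 (2.89%, 1.17 to 5.87%), against 15.9% (14.7 to 17.1%) of the lower regions. A position over 0.75 was found in 14 (5.79%, 3.20 to 9.52%), against 8.17% (7.30 to 9.12%), and these intervals overlap. In the 114 regions above 99 fragments, 12.3% (6.88 to 19.7%) lay under 0.25 and 5.26% (1.96 to 11.1%) over 0.75. The summit was within 25 bp of the midpoint in 57.9% (48.3 to 67.1%) of those 114. The plot of summit position shows the shoulder near 0.15 to 0.20 of the lower regions, which the tall set lacks. Pileup and background both differ between the sets, and their part in summit position was not tested.

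**Figure D3:**
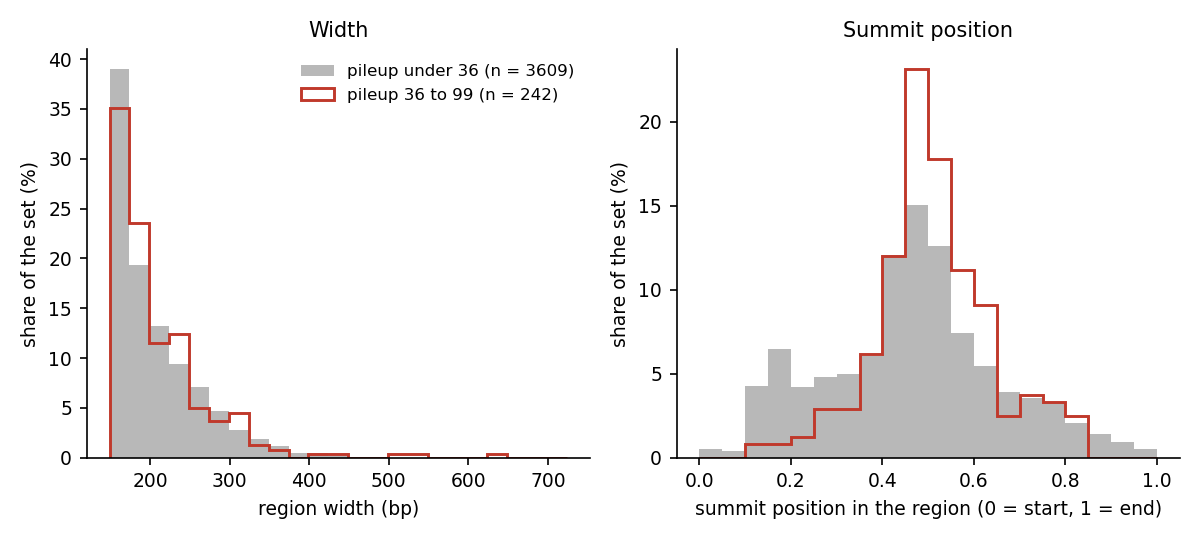
Width in bp (left) and summit position within the region, from 0 at the start to 1 at the end (right), as shares of each set in % for the 242 tall regions (outline) and the 3609 lower single-summit regions (filled). The width distributions lie over each other with medians of 190 and 187 bp, while summits of the tall set gather nearer the middle.

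Among regions of at least 200 bp, the 5 whose relative summit position lay nearest an edge all had it on the side of the start, and 3 of them had a background above 20. This does not hold for the whole set, where positions over 0.75 outnumbered those under 0.25. They were chromosome 6, 3092634 to 3092851, with the summit at 0.134 of the region, 44 fragments over 34 input fragments and 1.71-fold (1.25 to 2.28), and chromosome 7, 11938792 to 11939025, at 0.137, with 62 over 52 and 1.59-fold (1.22 to 2.03). Chromosome 9, 4675092 to 4675353, at 0.157, had 86 over 53 and 2.15-fold (1.72 to 2.65). Chromosome 12, 1010960 to 1011213, had it at 0.198 with 2.45-fold (1.76 to 3.35). The last, chromosome 9, 3415930 to 3416169, had it at 0.218 with 1.92-fold (1.37 to 2.61). On chromosome 2, a region of 285 bp outside these 5 had its summit almost as near the end, at 0.782. By group, the summit was a median of 21.5 bp (95% interval of the median 6.5 to 53) from the midpoint in the 24 regions with a background above 20. In the other 218 it was 12.8 bp (11 to 15.5), an interval that lies within the first. All 5 named regions were below the median fold of the set.

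Every chromosome carried members, from 14 on each of chromosomes 5, 8 and 12 to 33 on chromosome 1. Over the 371 Mb from the first to the last listed region of each chromosome, the set had 0.651 regions per Mb (95% Poisson interval 0.572 to 0.739), against 9.72 per Mb for the lower regions. The densest was chromosome 9, where 23 regions gave 1.016 per Mb (0.644 to 1.52), and next came chromosome 6, where 28 gave 0.900 per Mb (0.598 to 1.30). The sparsest were chromosome 5 with 0.471 per Mb (0.258 to 0.791) and chromosome 4, where 17 regions gave 0.479 per Mb (0.279 to 0.767). The intervals of all 12 chromosomes include the overall density, and those of chromosomes 9 and 5 overlap. The difference between chromosomes was not tested.

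**Figure D4:**
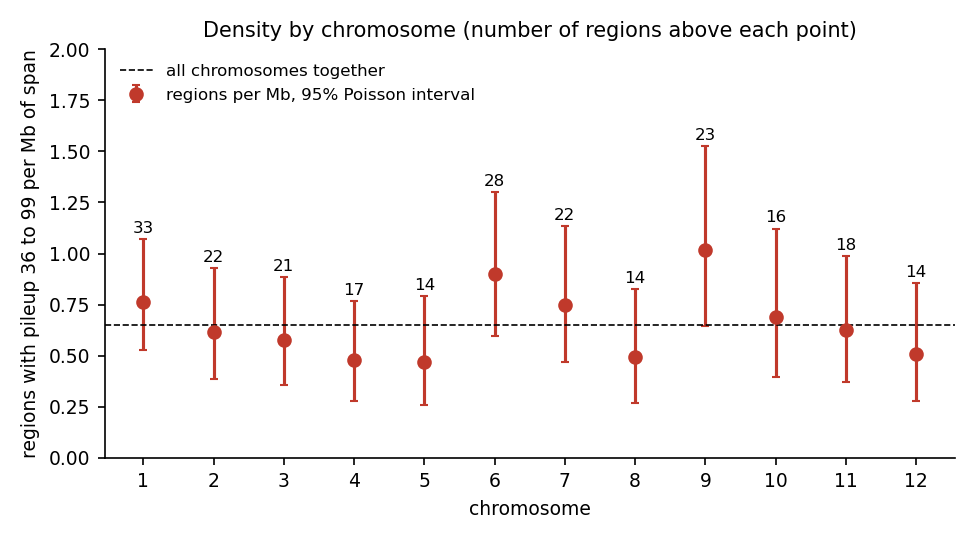
Regions with a pileup of 36 to 99 per Mb of span (y axis) on each of the 12 chromosomes (x axis), with exact 95% Poisson intervals, the number of regions above each point and the overall density of 0.651 per Mb as a dashed line. All intervals cross the line; chromosome 9 is highest at 1.016 and chromosome 5 lowest at 0.471.

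The share of a chromosome's listed regions that were tall ran from 4.17% on chromosome 3 (exact binomial interval 2.60 to 6.31%) to 8.16% on chromosome 9 (5.24 to 11.99%). These intervals overlap, and those of all 12 chromosomes include the overall 5.78%. Chromosome 3 held 12.6% of the lower regions and 8.68% of the tall ones, and chromosome 9 held 6.59% and 9.50%. Median fold by chromosome lay between 2.64 on chromosome 9 and 3.08 on chromosome 11, and was under 3 on 10 of the 12. Regions of 4-fold or more numbered 5 on chromosome 11 and 4 on chromosome 8, and 0 on chromosome 5, where the highest fold was 3.65.

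Tall regions were found in all parts of the chromosomes. When each span was divided into 5 equal parts, the parts held 47, 50, 52, 44 and 49 of the 242 regions from the low to the high coordinates. The lower regions had 722, 628, 584, 852 and 823. The middle part thus held 21.5% (16.5 to 27.2%) of the tall regions and 16.2% (15.0 to 17.4%) of the lower ones, intervals that overlap slightly. Median background of the tall regions was 14.9 in the first part and 11.5 in the last, while that of the lower regions lay between 7.32 and 7.45 in all 5 parts. Gaps in the assembly and sequence that reads cannot be mapped to remain in these spans.

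Regions over high input were counted in the same 5 parts. Of the 24 with a background above 20, the first 3 parts of the spans held 6, 9 and 8, the fourth held 1 and the last held 0. For the whole set the last 2 parts held 44 and 49 of 242; the difference between these placements was not tested. The 114 regions above 99 fragments, whose median background was 133, numbered 14, 14, 20, 56 and 10 in the 5 parts. Chromosome 12 alone held 52 of these 114, and its window from 20 to 21 Mb held 75 listed regions. The 5 parts were not counted without chromosome 12. Of the 24 regions with a background above 20, chromosome 9 carried 5, chromosomes 2 and 3 carried 4 each, and chromosome 8 carried 0. The 26 regions of 4-fold or more were found in all parts, as 2, 4, 7, 5 and 8. The positions of centromeres and repeats were not used here, so their part in this placement was not tested.

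Tall regions were mostly far from each other. The distance between a region's edge and that of the nearest other tall region was a median of 473 kb (95% interval of the median 377 to 611 kb), with quartiles of 176 and 1115 kb. Another tall region lay within 1 kb of 6 of the 242 (2.48%), within 20 kb of 12 and within 100 kb of 42 (17.4%). There were 0 runs of 3 or more with gaps up to 20 kb. Of 366 full windows of 1 Mb, 195 held 0 tall regions, 116 held 1, 46 held 2, 7 held 3 and 2 held 4. The variance of these counts was 1.022 times their mean of 0.648.

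Distances to any listed region were far shorter, as the list is denser. They had a median of 27.8 kb (21.9 to 33.6) for the tall regions and 30.4 kb (28.7 to 32.3) for the lower ones. Another listed region lay within 5 kb of 32 tall regions (13.2%, 9.22 to 18.2%) and of 11.5% (10.5 to 12.6%) of the lower ones. Within 1 kb the shares were 6.61% (3.83 to 10.5%) and 3.19% (2.64 to 3.81%). Among tall regions, 21 had a lower single-summit region within 5 kb, 6 had a region above 99 fragments and 5 had a region with several summits. The intervals of the tall and lower regions overlap at 5 kb and lie just apart at 1 kb, and neither difference was tested. Of the 16 tall regions with a neighbour within 1 kb, 6 had another tall region there, so those pairs count on both sides.

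**Figure D5:**
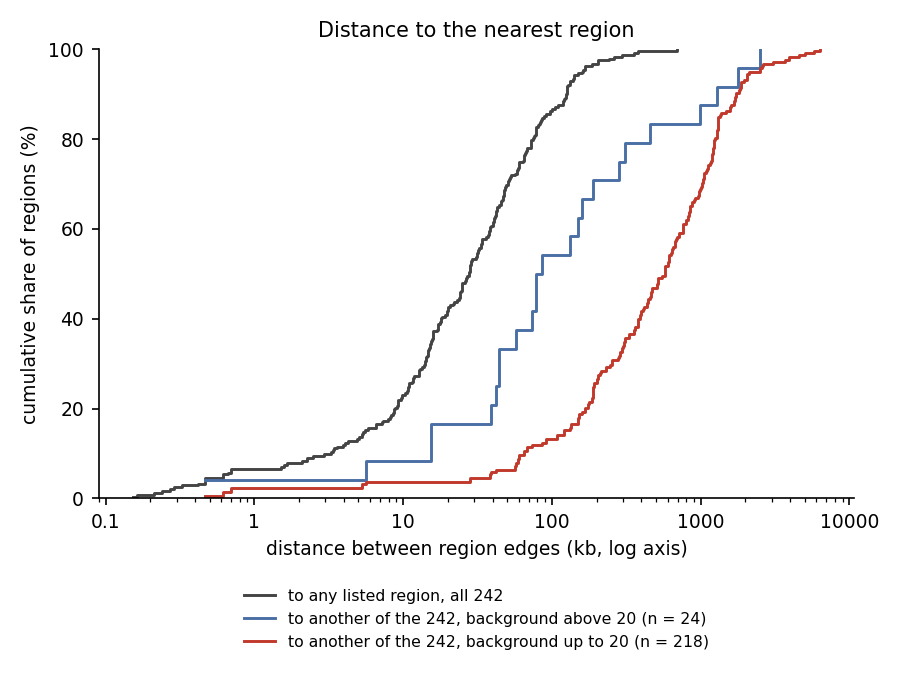
Cumulative share of regions in % (y axis) by distance between region edges in kb (x axis, log), for the 242 tall regions to any listed region, and to another tall region for those with a background above 20 (n = 24) and up to 20 (n = 218). Medians are 27.8, 82.0 and 572 kb.

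The closest pairs differed in kind. On chromosome 1, 16922710 to 16922860 and 16923324 to 16923485 were 463 bp apart, with 38 and 61 ChIP fragments over 20 and 29 input fragments, and folds of 2.45 and 2.74. On chromosome 8, the pair at 2080038 and 2080899 was 613 bp apart with 65 and 38 fragments, and folds of 9.95 and 5.74. A region of 123 fragments and 10.9-fold, at 2079031 to 2079323, stood next to it but above the upper limit of height. On chromosome 3, 24656602 to 24656768 and 24657464 to 24657719 were 695 bp apart, with 36 and 42 fragments over 15 and 24 input fragments, and folds of 3.04 and 2.28. The pair on chromosome 8 is the only one of these 3 in which both regions exceeded 5-fold.

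At 5.33 kb, chromosome 12 held 18353394 to 18353677 with 3.72-fold and 18359010 to 18359162 with 2.23-fold. At 5.60 kb, chromosome 4 held 9183658 to 9183837, with 85 fragments and 2.86-fold (2.29 to 3.53), and 9189442 to 9189603, with 67 fragments and 3.32-fold (2.59 to 4.21), and 1 further listed region lay between them. Tall regions with a background above 20 had a nearest tall neighbour at a median of 82.0 kb, against 572 kb for the other 218. Of the 12 regions with a tall neighbour within 20 kb, 4 had such a background.

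The densest windows held 4 tall regions each. In the window from 9 to 10 Mb of chromosome 4 lay the pair just named, with 9564522 to 9564674 at 2.71-fold (1.94 to 3.69) and 9768489 to 9768660 at 3.08-fold (2.23 to 4.15). In the window from 10 to 11 Mb of chromosome 9 lay 10493609 to 10493814 at 4.50-fold (3.20 to 6.16), 10626068 to 10626258 at 2.35-fold (1.80 to 3.02), 10862562 to 10862724 at 2.64-fold (1.90 to 3.59) and 10922346 to 10922668 at 3.46-fold (2.45 to 4.76). The fold intervals overlap one another in the window on chromosome 4. On chromosome 9 that of the first region lies above that of the second. Those intervals leave out the counting error of the 10 and 33 input fragments at these regions. The regions of the window on chromosome 9 were at least 59.6 kb apart.

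The longest stretches without a tall region were on chromosomes 5 and 8. On chromosome 5 they measured 8.16 Mb, from 15462956 to 23627141, and 7.23 Mb, from 6632801 to 13865473. On chromosome 8 a stretch of 6.88 Mb ran from 12248673 to 19124325. The list was not empty there, as the 3 stretches held 110, 69 and 49 other regions. Among those, regions with several summits numbered 5, 0 and 0, and single-summit regions above 99 fragments numbered 0, 0 and 2. By construction, the rest were single-summit regions below 36 fragments.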

How the data were processed

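The members, limits and comparisons were chosen with earlier results of these data known. Reads were mapped with BWA and peaks were called with MACS2, per the submitters' processing notes; versions, genome build and duplicate handling are not stated in these notes, and library sizes are unknown. The authors deposited 1 peak table and 1 summit list for the ChIP library against the input library. The deposited pileup is a signal in ChIP fragments. The deposited fold enrichment is a ratio, per the file headers. The deposited −log10 p-value and −log10 q-value columns had lost their header names and were identified by order and values; all 4445 q values matched the summit list. Background was recovered as (pileup + 1) / fold − 1, and the upper tail of a Poisson distribution with this mean matched the −log10 p column within 0.000322. One input fragment equalled 0.745 ChIP-scaled fragments. Window tolerances were 0.001 (149 bp) and 0.0005 (others).

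Single-row regions on chromosomes 1 to 12 were cut by pileup, and distances run edge to edge. Intervals are 95%: exact Poisson with background held fixed, exact binomial, or order statistics for medians. No test was made, as each group has 1 library. Named regions were the 10 of highest fold, 3 examples at each limit of height, the 5 widest, 3 narrowest, 5 with the summit nearest an edge, 3 of highest background, the 5 closest pairs, the densest windows and the 3 longest stretches. Python 3.11.15, numpy 2.4.6, pandas 2.3.3 and scipy 1.17.1 were used, and the routines were tested on simulated lists.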

Additional observations from a re-analysis of the deposited data

How the results depend on the processing

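Of 38 alternative values, 24 stayed within the interval of the reported value or within 1.5 times the reported count. The 242 regions became 833 with a lower limit of 30 fragments, 40 with a limit of 45, and 30 when −log10 q had to reach 10. The median fold of 2.85 became 2.53 with no upper limit and 4.56 at that q. Median width moved from 190 to 209.5 bp at that q alone. The median summit position moved from 0.499 to 0.483 with a limit of 45 and to 0.479 at that q. The median distance to the nearest member, 473 kb, became 138 kb with a limit of 30, 2104 kb with 45, 190.2 kb with no upper limit, 2869 kb at that q, 646 kb with backgrounds up to 20 and 27.8 kb to any listed region; distances lengthen by construction when fewer regions are kept. The alternatives on CCAAT and on gene starts were not run, for want of a genome of the files' build. No paired analysis was possible because each group holds a lone library, which also leaves no replicate to omit. Depth limits the folds: at 38 fragments the Poisson interval is 26.9 to 52.2.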
